A study of Bos taurus and Bos indicus with 3 samples.

Results

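Cytochrome c oxidase, the terminal complex of the respiratory chain, takes electrons from cytochrome c and passes them to oxygen while it pumps protons across the inner mitochondrial membrane. Its catalytic core is encoded by the mitochondrial genome, and the surrounding subunits, which are needed for assembly, stability and regulation, are encoded in the nucleus. The 10 nuclear subunit genes described here are COX4I1, COX5A, COX5B, COX6A1, COX6B1, COX6C, COX7A2, COX7B, COX7C and COX8A, the forms found in most tissues. Each was taken by its symbol or by its bovine protein entry name among the 25968 gene models of the deposited table, and where a name stood on several models the one with the highest mean was used. All 10 were found, all were above 0 in every library, and only COX7C stood on 2 models.

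The values come from mRNA-Seq of peripheral white blood cells of cows, with 1 library for each of 3 breeds. Cholistani, an indicine breed, was represented by pooled blood of 45 cows from a farm in Punjab, Pakistan, and the taurine breeds by pooled blood of 7 Jersey and 40 Holstein cows from university herds in Wisconsin. The RNA of the Cholistani pool alone was shipped in a dry storage matrix, so breed, herd, location and shipment cannot be told apart. The files give FPKM (fragments mapped to a transcript, scaled by its exon length and by a factor for the library). The authors applied upper-quartile scaling, so that factor is not the plain number of mapped fragments. FPKM is a level per transcript length that allows genes to be compared within a library. With 1 library per breed there is no spread between samples, so no test, error or p-value could be computed, and the fragments behind each value are unknown. Neighbours in an order of levels therefore could not be called different.

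The FPKM of all models summed to 9518430 in the Cholistani library, 6288100 in the Jersey library and 5949770 in the Holstein library. A setting in which the sums were made equal is therefore given beside the counts: it shifted the median log2 difference of all models by -0.66 between Cholistani and Holstein and by -0.58 between Cholistani and Jersey. Of the neutrophil, monocyte, T cell, B cell and natural killer cell markers found, all but the neutrophil gene MMP9, listed at 0 in Jersey, were above 0 in all 3 libraries. Summed over the markers found, neutrophil genes (8 of 10 found) had 37326, 30828 and 39021 FPKM in Cholistani, Jersey and Holstein, T cell genes (5 of 9) had 10623, 4887 and 4917, and B cell genes (4 of 7) had 17221, 9469 and 7540. The neutrophil sum rests mostly on S100A8, S100A9 and S100A12, while CXCR2 (598, 7.62 and 33.5 FPKM), NCF1 (2092, 396 and 415) and CSF3R (1976, 532 and 657) were higher in Cholistani. Of the 8 neutrophil genes, 3 were at least 2-fold higher against Holstein and 5 against Jersey, where 20.4% and 17.6% of all models were. Monocyte genes (2 of 7 found) had 851, 442 and 635 FPKM in the same order, and the natural killer gene NCR1 had 1594, 502 and 699.7. Platelet genes (4 of 7) had 1424, 4091 and 5408 FPKM, and red cell genes (4 of 7, with AHSP listed at 0 in all 3 libraries) had 102, 385 and 549. In the taurine libraries these sums rest mostly on TUBB1 (551, 2997 and 4430 FPKM) and ALAS2 (32.3, 363 and 536). In Cholistani PPBP (621, 939 and 821) stood above TUBB1, and HBA (69.3, 11.5 and listed at 0) above ALAS2. GP9 (190.04, 104 and 84.5) and HBA were higher in Cholistani. GP1BB had 62.9, 51.0 and 72.9 FPKM, and EPB42 was listed at 0 in Cholistani, with 9.94 and 13.5 in the taurine libraries. PRG3, the eosinophil gene found, was listed at 0 in Cholistani and Holstein and had 33.1 FPKM in Jersey. In such bulk samples, fewer cells of a type and less RNA per cell cannot be told apart, and the part of these differences in the subunit values was not tested.

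COX4I1, the largest nuclear subunit, which joins the core early in assembly and binds adenine nucleotides, was the most abundant member in both taurine libraries and stood lowest in Cholistani relative to them. It had 1338 FPKM in Cholistani, against 9460 in Jersey and 8930 in Holstein. The Cholistani value was 0.150 times the Holstein value, a log2 difference of -2.74 in FPKM + 1, and 0.141 times the Jersey value (-2.82), while Jersey and Holstein differed by 0.08. COX4I1 lay on chromosome 18 of btau4.0, in a listed span from 10884895 to 11063607.

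COX6C, a small subunit with a single membrane helix, was the other member at least 2-fold lower in Cholistani. It had 542 FPKM in Cholistani, against 1560 in Jersey and 1111 in Holstein, with log2 differences of -1.52 and -1.04. It was also the member for which the taurine libraries were farthest apart, with Jersey 1.40 times Holstein (log2 difference 0.49). The model lay on chromosome 14 from 62538824 to 62549023.

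COX5A and COX5B, subunits on the matrix side of the complex, had higher FPKM in Cholistani as deposited. COX5A had 2454 FPKM in Cholistani, 1307 in Jersey and 1222 in Holstein, on chromosome 21 from 33835230 to 33846365. COX5B, which binds zinc, had 4876 FPKM in Cholistani, 1564 in Jersey and 1571 in Holstein, at a model of 410 bases on chromosome 23 from 8751288 to 8751697. COX5B had the largest positive difference of the members, 3.10 times Holstein and 3.12 times Jersey. Its model, like those used for COX6A1, COX6B1, COX7B and COX7C, lay away from the neighbours that RefSeq lists for the gene, as described below. COX5A stood on the edge of the 2-fold limit at 2.01 times Holstein (log2 difference 1.01) and 1.88 times Jersey.

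Of the subunits that contact the neighbouring monomer in the dimer of the enzyme, COX6A1, the widely expressed form of its pair of isoforms, had 1485 FPKM in Cholistani, against 785.7 in Jersey and 678 in Holstein. The Cholistani value was 2.19 times Holstein and 1.89 times Jersey. COX6B1, which faces the intermembrane space where cytochrome c docks, had 2884 FPKM in Cholistani, against 1158 in Jersey and 1071 in Holstein, 2.69 times Holstein and 2.49 times Jersey. Both were thus higher in Cholistani, and only COX6B1 passed 2-fold against both taurine libraries. The COX6A1 model spanned 551 bases on chromosome 5 from 70231709 to 70232259, and the COX6B1 model lay on the same chromosome in a listed span from 100760994 to 100879642.

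The remaining small membrane subunits did not share a direction. COX8A had 5451 FPKM in Cholistani, 2570 in Jersey and 2576 in Holstein, 2.12 times Holstein, and was the most abundant member in Cholistani (chromosome 29, 44085254 to 44087020). COX7B had 2597, 2082 and 2005 FPKM in the same order, 1.30 times Holstein (chromosome 17, listed span 61148228 to 61262700). The Cholistani levels of COX8A and COX7B lay above both taurine levels, and those of the other 2 small subunits did not. COX7C had 530.2, 522 and 630 FPKM at its more abundant model (chromosome 10, listed span 73927658 to 74125983). COX7A2, the least abundant member in every library, had 303, 357 and 359 FPKM (chromosome 9, listed span 14443724 to 14685362). Neither COX7B, COX7C nor COX7A2 reached a 2-fold difference in any comparison.

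**Figure D1:**
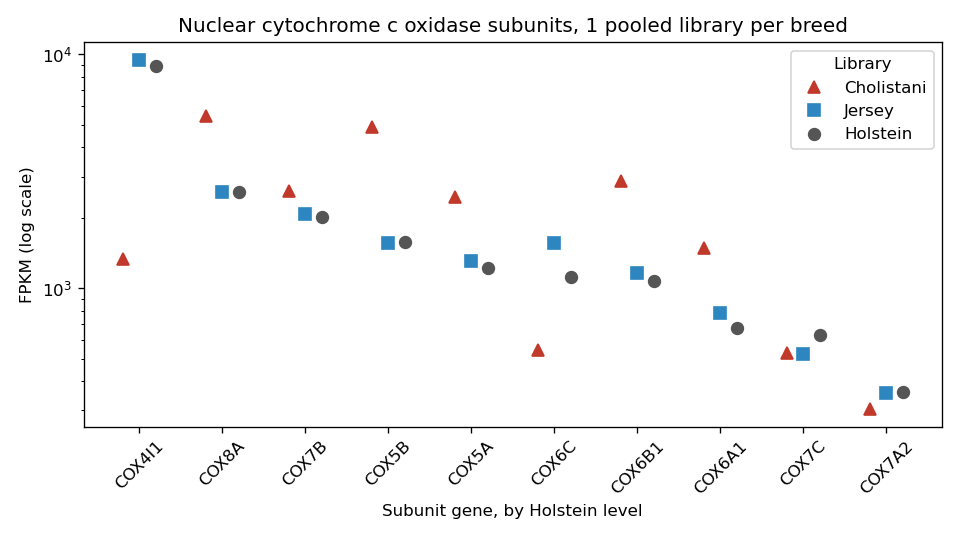
FPKM (log scale) of the 10 subunit genes in the Cholistani (triangles), Jersey (squares) and Holstein (circles) libraries, 1 point per library, ordered by the Holstein level. The Cholistani point of COX4I1, at 1338 FPKM, lies far below the taurine points, and that of COX5B, at 4876 FPKM, far above them. The COX5B model lay away from the RefSeq neighbours of the gene.

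Against Holstein, 5 of the 10 members were at least 2-fold higher in Cholistani (COX5A, COX5B, COX6A1, COX6B1 and COX8A), 2 were at least 2-fold lower (COX4I1 and COX6C) and 3 were neither. Of all 14724 models above 0 in either library, 20.4% were higher and 14.3% lower by the same rule. Among the 866 models with a mean of at least 1000 FPKM, a class that held 7 of the members, 26.6% were higher and 3.93% lower. The median log2 difference of the members was 0.69, against 0.19 over all models and 0.58 over the abundant ones. With the library sums made equal, 0 members were higher and 2 lower, and the median was 0.01. Of all models, 12.04% were then higher and 28.5% lower, with a median of -0.47. COX4I1 and COX6C were the lower members in both settings, with log2 differences of -3.42 and -1.71 after equalizing. COX5A, COX5B, COX6A1, COX6B1 and COX8A stayed positive after equalizing, between 0.33 for COX5A and 0.96 for COX5B. COX7B changed sign (-0.30), and COX7A2 and COX7C were at -0.92 and -0.93.

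Against Jersey, 3 of the 10 members were at least 2-fold higher in Cholistani (COX5B, COX6B1 and COX8A) and the same pair, COX4I1 and COX6C, was lower. The shares over all 14909 models were 17.6% higher and 14.6% lower, and over the abundant models 23.4% and 5.54%. The median of the members was 0.61, against 0.15 over all models and 0.57 over the abundant ones. With the sums made equal, COX5B alone was higher, COX4I1 and COX6C were lower, and the median was 0.02. Of all models, 10.7% were then higher and 26.9% lower, with a median of -0.43. Both comparisons use the same Cholistani library, so the second is no independent repeat of the first.

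Between the taurine libraries no member reached 2-fold in either direction, where 8.54% of 14303 models were higher and 5.02% lower in Jersey than in Holstein. Among the abundant models the shares were 2.66% and 0.231%. The members ranged from -0.27 for COX7C to 0.49 for COX6C, with a median of 0.07 (0.02 over all models). COX5B, COX7A2 and COX8A differed by less than 1% between Jersey and Holstein, with ratios of 0.996, 0.996 and 0.998.

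**Figure D2:**
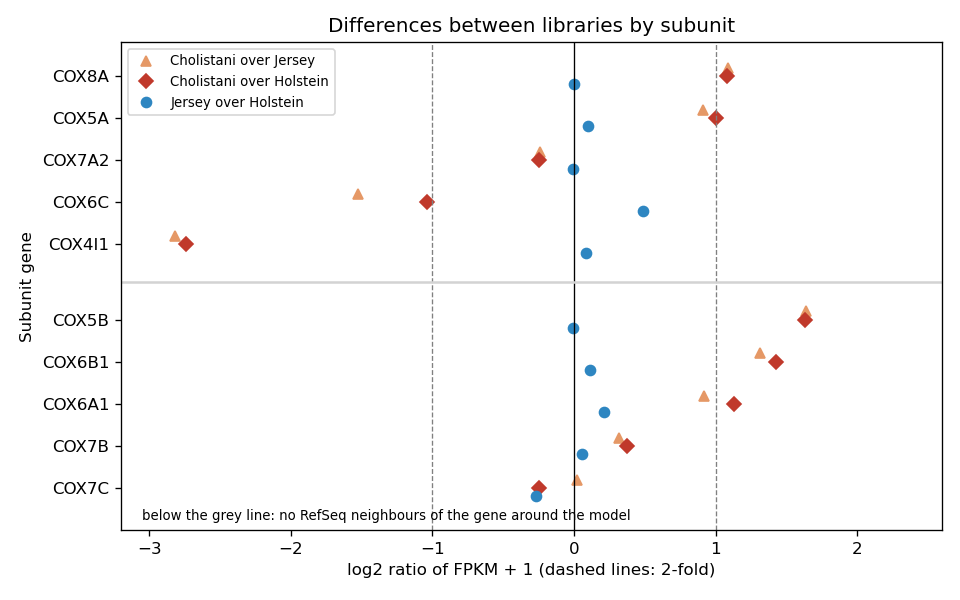
Log2 ratio of FPKM + 1 for each subunit in the 3 comparisons, with dashed lines at 2-fold. The 5 genes below the grey line sit on models whose neighbours are not those of the gene in RefSeq. The Jersey over Holstein points lie between -0.27 and 0.49, and those of Cholistani over Holstein between -2.74 and 1.63.

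In place among abundant genes, COX4I1 was near the bottom of the table. Only 3 of the 866 models with a mean of at least 1000 FPKM had a lower Cholistani over Holstein ratio, and only 9 a lower Cholistani over Jersey ratio. For COX6C these numbers were 31 and 23. At the other end, 76 models had a higher Cholistani over Holstein ratio than COX5B and 105 a higher one than COX6B1.

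The subunits enter the enzyme in equal numbers, but their transcripts were not equally abundant in any library. The highest member exceeded the lowest by 18.0 times in Cholistani, 26.5 times in Jersey and 24.9 times in Holstein. Shares within a library do not depend on its scale. COX4I1 made up 5.96% of the summed FPKM of the 10 subunits in Cholistani, against 44.3% in Jersey and 44.3% in Holstein, and was the seventh member by level in Cholistani and the first in the taurine libraries. COX8A made up 24.3% in Cholistani, 12.03% in Jersey and 12.8% in Holstein, and COX5B, on a model away from the gene's RefSeq neighbours, 21.7%, 7.32% and 7.80%. COX6C contributed 2.41%, 7.30% and 5.51%. Since COX4I1 weighs on every other share, the shares were also taken over the other 9 members, where COX8A made up 25.8%, 21.6% and 22.95%, COX5B 23.1%, 13.1% and 13.999%, and COX6C 2.56%, 13.1% and 9.90%.

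As deposited, the summed FPKM of the members was close in the 3 libraries, at 22459 in Cholistani, 21367 in Jersey and 20152 in Holstein, so that Cholistani had 1.11 times the Holstein sum. Leaving out COX4I1, the sums were 21121, 11907 and 11222, and Cholistani had 1.88 times the Holstein sum and 1.77 times the Jersey sum. With the library sums made equal, these ratios were lower: all members together had 0.697 times the Holstein sum and 0.694 times the Jersey sum in Cholistani, and without COX4I1 1.18 and 1.17 times. Between Jersey and Holstein the share of no member differed by more than 1.79 percentage points.

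**Figure D3:**
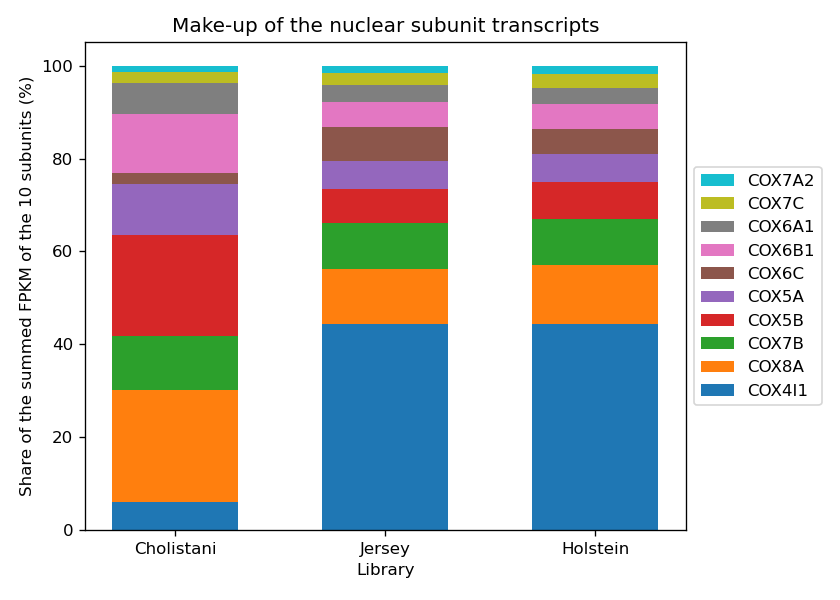
Share (%) of each subunit in the summed FPKM of the 10 subunit genes, in the Cholistani, Jersey and Holstein libraries, stacked in 1 bar per library. COX4I1, the lowest block, takes 5.96% in Cholistani and 44.3% in each taurine library, and COX8A and COX5B take more in Cholistani.

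The place of the models bears on what their values measure. Nuclear subunit genes of this enzyme are known for many processed copies in mammalian genomes, and the authors' alignment kept reads that matched up to 20 locations, so a gene and a near-identical copy may share reads. For each member the 12 nearest named models were compared with the 30 genes nearest to it in RefSeq's table of a later bovine assembly (ARS-UCD2.0), which lists all 10 genes. The models used for COX4I1, COX5A, COX6C, COX7A2 and COX8A had 9 to 12 of those neighbours in common with RefSeq. The models used for COX5B, COX6A1, COX6B1, COX7B and COX7C had 0. Their values are therefore uncertain as values of the genes they are named for. The listed spans of COX4I1, COX6B1, COX7A2, COX7B and the COX7C model used also hold models of other genes, among them GINS2, DERA and FBXW8. Reads where transcripts overlap may therefore be divided between the models.

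The RefSeq table offers a further description of these 5 places. Between NUDT3 and RPS10, where the COX5B model lay, it lists the pseudogene LOC100296311. Between DERA and STRAP, at the COX6B1 model, it lists the pseudogene LOC338087, and between FBXW8 and RNFT2, at the COX7B model, the pseudogene LOC100295347. Between ARL1 and SPIC, at the COX6A1 model, it lists a protein-coding gene without a symbol of its own, LOC101902002, and between GPR135 and PPM1A, at the COX7C model used, the pseudogene LOC781059 among other genes. The table does not say what these loci are copies of, if of anything, and their part in the values was not tested.

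Of the members called higher in Cholistani against Holstein, 3 of 5 (COX5B, COX6A1 and COX6B1) sat on such models and 2 of 5 (COX5A and COX8A) did not. Both lower members, COX4I1 and COX6C, sat on models with the neighbours of the gene. Over the 5 models with matching neighbours the median log2 difference was -0.24 between Cholistani and Holstein, with 2 higher and 2 lower. Over the 5 models without, it was 1.13, with 3 higher and 0 lower. The shares over all models were 20.4% higher and 14.3% lower, with a median of 0.19. Among the abundant models these values were 26.6%, 3.93% and 0.58. The split by place was chosen after seeing the data.

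For COX5B, COX6A1 and COX6B1, the named model lay away from its RefSeq neighbours. A model without a name lay between the models of genes on either side of the member in RefSeq. These were the adjacent genes for COX6B1 only. The files give these models no gene name, so they were not assigned to the subunits (their choice followed a look at their values). Between ETV2 and UPK1A, which are next to COX6B1 in RefSeq, an unnamed model on chromosome 18 from 45802082 to 45811335 had 1119 FPKM in Cholistani, 1038 in Jersey and 909.95 in Holstein, 1.23 times Holstein, where the model named COX6B1 had 2.69 times. SEMA4C and ZAP70 stand 2 and 3 places from COX5B on either side in RefSeq. Between them, an unnamed model on chromosome 11 from 3257579 to 3260249 had 872, 934 and 892 FPKM, 0.977 times Holstein, where the model named COX5B had 3.10 times. LOC618158 also lay between these flanks, at 5.36, 20.4 and 79.7 FPKM. SIRT4 and COQ5 stand 4 and 5 places from COX6A1 on either side. Between them, an unnamed model on chromosome 17 from 66016947 to 66018748 had 2049, 1275 and 1240 FPKM, 1.65 times Holstein, where the model named COX6A1 had 2.19 times. Named models, such as those with the entry names GATCL and DYL1, also lay between these flanks. None of the 3 unnamed models reached 2-fold in any comparison.

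COX7C itself stood on a second model, on chromosome 7 in a listed span from 87508171 to 87650891, which had 10 of its 12 named neighbours in common with RefSeq. It had 477 FPKM in Cholistani, 354 in Jersey and 444.5 in Holstein, 1.07 times Holstein and 1.35 times Jersey. The model used had 0.842 times Holstein and 1.02 times Jersey. With either model COX7C stayed within 2-fold. An unnamed model also lay between EDIL3 and RASA1, on either side of COX7C in RefSeq, with 117 FPKM in Cholistani, 157 in Jersey and 160.1 in Holstein.

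**Figure D4:**
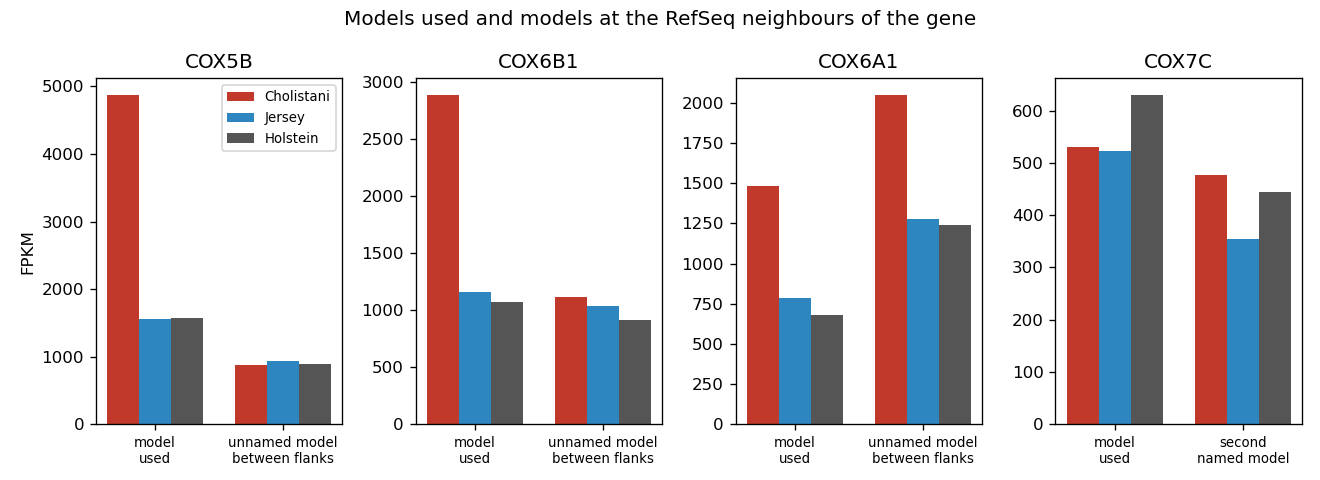
FPKM (axes from 0, a separate scale for each gene) in the Cholistani, Jersey and Holstein libraries. For COX5B, COX6B1 and COX6A1 the left bars are the named model and the right bars the unnamed model between the RefSeq flanks of the gene, and for COX7C both models carry the name. The named COX5B model has 4876 FPKM in Cholistani, and the unnamed one 872.

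COX4I1 shared its listed span with GINS2, a replication factor gene, and with EMC8, a neighbour listed under its older name COX4NB, and the strand of each was not given in the sources used here. As deposited, neither was lower in Cholistani. EMC8 had 362 FPKM in Cholistani, 252 in Jersey and 254 in Holstein, and GINS2 had 137, 31.8 and 39.5. The EMC8 value was 1.42 times Holstein and 1.43 times Jersey, below the ratios of the library sums, 1.60 and 1.51. An unnamed model on the same chromosome, in a listed span that ends 1335 bases before that of COX4I1, had 475 FPKM in Cholistani, 1767 in Jersey and 1999 in Holstein, 0.238 times Holstein (named after its values were seen). LOC538506, which has the same listed span as that unnamed model, had 232, 243 and 219.5 FPKM.

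Some subunits have a second isoform restricted to certain tissues. Of 7 such genes, 4 were found. COX4I2, the form of subunit 4 known from lung, and COX6A2, the form of heart and skeletal muscle, were listed at 0 in all 3 libraries. COX6B2, known from testis, was listed at 22.2 FPKM in Cholistani and at 0 in both taurine libraries. COX7A1, the form of heart and skeletal muscle, had 412 FPKM in Cholistani, 142 in Jersey and 110.002 in Holstein, 3.75 times Holstein and 2.90 times Jersey. It thus exceeded COX7A2 in Cholistani, where it made up 57.7% of the FPKM of both, and was below COX7A2 in Jersey (28.5%) and Holstein (23.5%).

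Proteins that associate with the complex gave no shared direction. COX7A2L, which joins the oxidase to complex III, had 2151 FPKM in Cholistani, 1159 in Jersey and 1071 in Holstein, 2.01 times Holstein. NDUFA4, once taken for a complex I subunit, had 1672, 1881 and 1728 FPKM. HIGD1A was listed at 0 in all 3 libraries, and HIGD2A was not found by name.

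Of 27 assembly factors, 9 were found, and against Holstein 1 was called higher in Cholistani by the 2-fold rule on FPKM + 1. This was TMEM177, at 19.0 FPKM in Cholistani, 11.9 in Jersey and listed at 0 in Holstein. By the same rule 20.4% of all models were higher and 14.3% lower. The most abundant were SURF1, an assembly factor mutated in Leigh syndrome in humans, with 393 FPKM in Cholistani, 514 in Jersey and 713 in Holstein, and OXA1L, an inserter of inner membrane proteins, with 554, 321 and 351. The median log2 difference of the assembly factors was 0.33 between Cholistani and Holstein (0.19 over all models). With the sums made equal it was -0.34 (-0.47 over all models). In that setting 1 was higher and 2 were lower, where 12.04% and 28.5% of all models were. Against Jersey 0 were called as deposited, and 0 higher and 2 lower with the sums made equal. Of all models, 17.6% were higher and 14.6% lower against Jersey as deposited, and 10.7% and 26.9% with the sums made equal.

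The core subunits of the mitochondrial genome had higher FPKM in Cholistani as deposited, within 2-fold. With the sums made equal, the median log2 difference of COX1 and COX2 was 0.04 against Holstein and -0.07 against Jersey. Over all models it was then -0.47 and -0.43. COX1, which holds the site of oxygen reduction, had 129900 FPKM in Cholistani, 88848 in Jersey and 79333 in Holstein, 1.64 times Holstein. COX2, which receives electrons from cytochrome c, had 54098, 38221 and 32787 FPKM, 1.65 times Holstein, and the model that merges COX3 with ATP6 and ATP8 had 268515, 168191 and 157891 FPKM, 1.70 times Holstein. CYCS, cytochrome c itself, stood on 2 models, at 342, 167 and 178 FPKM on chromosome 11 and at 122, 74.9 and 64.4 FPKM on chromosome 4, both 1.9 times Holstein. HCCS, which attaches heme to cytochrome c, had 158, 73.4 and 69.2 FPKM, 2.28 times Holstein. Only models named for the 10 members were compared with the RefSeq neighbours of their genes. The place of the models of CYCS, HCCS and the other related genes was not checked.

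Of 12 regulators known to act on nuclear respiratory genes, 7 were found, and none reached 2-fold in any comparison as deposited. The shares over all models were 20.4% higher and 14.3% lower against Holstein, and 17.6% and 14.6% against Jersey. Between Jersey and Holstein they were 8.54% and 5.02%. TFAM, the packaging and transcription factor of the mitochondrial genome, had 110.4 FPKM in Cholistani, 139 in Jersey and 133 in Holstein. GABPB1, a subunit of the factor GABP, had 96.4, 108.5 and 109 FPKM, TFB2M 110.3, 95.7 and 80.2, and PPARGC1B 32.8, 44.5 and 53.8, while PPARGC1A was listed at 0 in all 3 libraries. The median of the 6 regulators above 0 was -0.15 against Holstein and -0.18 against Jersey (0.19 and 0.15 over all models). With the sums made equal it was -0.82 and -0.77 (-0.47 and -0.43 over all models). PPARGC1B was then called lower in both, as were 28.5% and 26.9% of all models.

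Complex I, complex III and ATP synthase had positive median differences between Cholistani and Holstein, over a narrower range than the oxidase subunits. Of all models 20.4% were at least 2-fold higher and 14.3% lower, with a median of 0.19. Among the abundant models these values were 26.6%, 3.93% and 0.58. Of 31 complex I genes, 15 in Cholistani reached 2-fold or more of the Holstein value and 1, NDUFC1, was at or under 0.5 of it (56.7, 160.1 and 130.1 FPKM in Cholistani, Jersey and Holstein, named after its values were seen), with a median log2 difference of 0.95. The most abundant were NDUFA13 (2618, 1292 and 1297 FPKM) and NDUFS5 (2487, 1287 and 1206), and the farthest from 0 were NDUFB2 (1243, 388 and 429) and NDUFA9 (755, 274 and 265). Of 8 complex III genes, 4 were higher and 0 lower, with a median of 0.88. UQCRH (3291, 2934 and 2473 FPKM) and UQCR11 (2234, 1058 and 1028) were the most abundant, and CYC1 (1689, 786 and 771), which passes electrons to cytochrome c, and UQCRQ (1458, 661 and 586) the farthest from 0. Of 16 ATP synthase genes, 3 were higher and 0 lower, with a median of 0.57. ATP5ME (5760.0, 3056 and 2780.3 FPKM) and ATP5IF1, an inhibitor of ATP hydrolysis (4339, 4944 and 5201), were the most abundant, and ATP5MC1 (1279.6, 533 and 556) and ATP5PF (2772, 1106 and 1107) the farthest from 0. With the sums made equal, 0 genes of these 3 lists were higher in Cholistani than in Holstein, and 2 of complex I and 1 of complex III were lower. The medians were then 0.27, 0.20 and -0.10. Of all models in that setting, 12.04% were higher and 28.5% lower, with a median of -0.47.

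The SD of the log2 differences between Cholistani and Holstein was 1.35 over the 10 members, against 0.65 over complex I, 0.59 over complex III and 0.45 over ATP synthase. The SD of the members includes COX4I1, far below the rest, and the 5 models without RefSeq neighbours of the gene. The models of the other lists were not checked for their place. COX4I1, at -2.74, lay below every gene of those lists, whose lowest values were -1.19, -0.34 and -0.30. Of 13 other mitochondrial genes, such as carriers, import receptors and chaperones, 3 were higher and 0 lower against Holstein, where 20.4% of all models were higher, with a median of 0.37. With the sums made equal, 0 were higher and 0 lower, and the median was -0.31, against -0.47 over all models. Among them TOMM20, an import receptor, had 900.5 FPKM in Cholistani, 459 in Jersey and 310.1 in Holstein, PHB2, a prohibitin, had 1712, 746 and 683, and SLC25A3, the phosphate carrier, had 2010, 1163 and 1339.

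**Figure D5:**
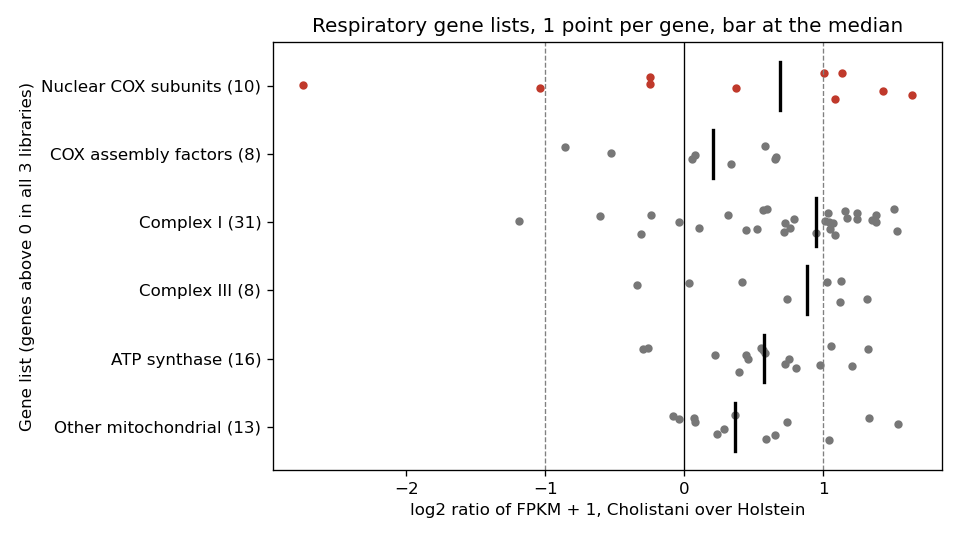
Log2 ratio of FPKM + 1, Cholistani over Holstein, for genes above 0 in all 3 libraries, 1 point per gene, with a bar at the median of each list. The oxidase subunits spread from -2.74 to 1.63, with COX4I1 farthest to the left of all plotted genes.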

How the data were processed

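The authors aligned paired reads to btau4.0 with TopHat 1.0.14 and Bowtie 0.12.7, discarded reads at more than 20 locations, merged assembled transcripts with the Ensembl genes and estimated abundance with Cufflinks 0.9.3. The deposited values are FPKM to which the authors had applied upper-quartile scaling and a sequence bias correction, and they entered here with no change. A library kit that marks strand was not given in the sources used here. Positions are 1-based (1 base was put on each start, read as 0-based). The 5 models with missing Jersey and Holstein values were left out.

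Differences are log2 ratios of FPKM + 1, computed with Python 3.11.15, numpy 2.4.6 and pandas 2.3.3 and tested on simulated data. They understate the differences of low genes. A model was called at 2-fold. The members and lists were chosen with earlier results of these data known. All members, all tissue isoforms and, of each other list, the 2 most abundant genes and the 2 farthest from 0 were to be named, and other names are said to be chosen after their values were seen. Of the blood cell lists the sums are given, with genes named after their values were seen. RefSeq gene names and neighbours come from a table of ARS-UCD2.0. Entry names were matched to RefSeq only where they equal a symbol or synonym, or by 3 added pairs. Alternatives were pseudocounts of 0.1 and 10, rescaled or centred values, a minimum of 10 FPKM, other choices of model, models with RefSeq neighbours only, and shares without COX4I1 and equalized sums of the members, the last 3 chosen after seeing the data. Sequences of proteins and promoters were not analysed here.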

Additional observations from a re-analysis of the deposited data

How the results depend on the processing

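The counts and medians above rest on the authors' scale and on which model carries a gene's name. With the sums of the libraries made equal, the number of members at least 2-fold higher in Cholistani was 0 against Holstein (12.04% of all models) and 1 against Jersey (10.7%). With differences centred on the median of models with at least 10 FPKM in both libraries, it was 2 against Holstein. With gene symbols only, COX4I1 was the single member left, so 0 were higher and 1 lower in both comparisons, with -2.74 against Holstein and -2.82 against Jersey. With models that have RefSeq neighbours only (6 members, COX7C on its second model), 2 were higher against Holstein and 1 against Jersey, 2 were lower in both, and the median was -0.07 against Holstein and 0.10 against Jersey. A pseudocount of 10 took COX5A just under 2-fold against Holstein (log2 difference 0.99987). A pseudocount of 0.1, the minimum of 10 FPKM and merged models changed no call of a member. Summing both COX7C models gave it 4.39%, 4.03% and 5.22% of the summed FPKM in Cholistani, Jersey and Holstein, against 2.36%, 2.44% and 3.13% with 1 model. No paired analysis was possible because each breed has 1 library, and for the same reason no replicate could be left out.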
